A study of Homo sapiens with 34 samples.

Results

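The mRNAs of 7 keratins (KRT7, KRT8, KRT15, KRT18, KRT19, KRT80 and KRT81), of vimentin (VIM) and of the transcription factor MITF were followed in human cells whose CCND1 level was altered. These are 9 of the 19041 genes in the deposited tables. They were chosen by symbol, and the counts of all 3′ UTR intervals carrying a symbol were summed in each library. Some intervals carry their symbol more than once (for example "VIM,VIM"), and these were counted for the gene. Without them the sums would hold none of the reads of VIM, KRT80 and KRT15, 0.428% of those of MITF, 7.49% of those of KRT8 and 48.9% of those of KRT18.

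The cells were hTERT-RPE1, an immortalised human retinal pigment epithelial line. Cells of the CCND1 knockdown line carried a doxycycline-inducible shRNA against the CCND1 3′ UTR. Cells of the CCND1 overexpression line carried the same shRNA together with an inducible CCND1 allele that it does not target, so that the shRNA was shared by both. By the study's account the knockdown gave large cells and the overexpression small ones, and the question was whether mRNA turnover differs with cell size. Both lines were made with lentivirus and sorted or drug selected, and the study describes them as polyclonal in CCND1 expression. All cells received 0.5 µg/mL doxycycline and, from day 4, 10 µM 4-thiouridine (s4U) for 24 h, followed by a chase with 1 mM uridine for up to 1440 min. Unlabelled cells received 10 µM uridine in place of s4U. There were 34 libraries, 17 per line, in 2 courses per line, each course with 1 unlabelled library and 6 to 9 chase times. The labels do not say that the courses were separate cultures, so p-values measure the spread between courses only, which may be technical.

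Keratins form the intermediate filaments of epithelial cells as obligate pairs of a type I and a type II chain. KRT8 (type II) and KRT18 (type I) are the pair of simple epithelia, where KRT7 (type II) and KRT19 (type I) often join them. KRT15 is a type I keratin of basal cells in stratified epithelia, KRT81 a type II keratin of hair, and KRT80 a type II keratin found in many epithelia. Vimentin builds filaments by itself in mesenchymal cells and in many epithelial cells kept in culture. MITF is a basic helix-loop-helix leucine zipper factor that drives pigment genes in melanocytes and in the retinal pigment epithelium.

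The libraries were read from the 3′ end, so each gene is seen through the end of its transcript. The ends of the intervals that held most of each gene's reads are shown because they are what was counted. Each line is 30 bases of genome hg38 on the gene's strand, near the end of the interval, with the polyadenylation hexamer in capitals.
KRT8, chr12:52897199-52897228, minus strand: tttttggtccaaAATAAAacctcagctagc
KRT18, chr12:52952870-52952899, plus strand: gagcaggaggccAATAAAaagttcagagtt
KRT7, chr12:52248874-52248903, plus strand: agaatagcttccAATAAAgcagcctcattc
KRT81, chr12:52285914-52285943, minus strand: gatctgtgtttcAATAAAttaatgtagcca
KRT80, chr12:52169004-52169033, minus strand: attgtgagccaaAATAAAtgtcttttcttt
KRT15, chr17:41513757-41513786, minus strand: gtctgttcatgtAATAAAgaattacttttc
KRT19, chr17:41523623-41523652, minus strand: tcctgacctgccAATAAAaatttatggtcc
VIM, chr10:17237561-17237590, plus strand: tggttctgcttcAATAAAtctttggaaaaa
MITF, chr3:69968300-69968329, plus strand: cttgatagcctcATTAAAgcatttggtttt
The hexamer was AATAAA in all but MITF, which held ATTAAA. It ended between 13 bases (KRT81) and 30 bases (KRT7) before the end of the interval. AATAAA or ATTAAA, searched on the transcribed strand, stood in the last 50 bases of 67.5% of the 14608 intervals with 1000 reads or more, and of 27.1% of all 70030 intervals that name 1 gene.

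Most genes were read at 1 place. The whole of the KRT7, KRT80, KRT81, KRT15 and KRT19 counts came from 1 interval each, a 3′ UTR of a protein-coding transcript. MITF had 99.6% of its reads in the interval at chr3:69964847-69968337, and VIM had 97.0% at chr10:17237230-17237593. The remaining 3.01% of VIM reads lay at chr10:17235394-17236379, which is annotated as 3′ UTR only in transcripts marked for nonsense-mediated decay. KRT8 had 92.5% of its reads at chr12:52897187-52897427, and 14.5% of them mapped to more than 1 place. Its other interval, chr12:52946614-52948803, is the 3′ UTR of a separate KRT8 transcript. KRT18 was read in similar parts at chr12:52952843-52952901 (51.1%) and at chr12:52952347-52952812 (48.9%), which is coding sequence in 2 transcripts and 3′ UTR in 1. These KRT18 intervals lie closer together than the read length of 100 nt, so a read may be counted in both. This was not checked, and it bears on the KRT18 levels and on the ratio of KRT8 to KRT18. KRT81 has a near-identical neighbour, KRT86, but only 0.115% of the KRT81 reads were multimapped.

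Each library held between 14712332 and 44480703 reads in 3′ UTRs. All levels are CPM of these reads, the count scaled to a fixed library size, so they are shares of the library's 3′ UTR reads and not amounts per cell, and fewer cells of a type cannot be told apart from less RNA per cell. A few libraries stood apart from the mean of their line over 8343 genes: the 720 min library of overexpression course 1 (r = 0.860), the unlabelled library of knockdown course 1 (r = 0.884) and the unlabelled library of overexpression course 1 (r = 0.914). The other libraries had r between 0.965 and 0.990. CCND1 itself had 77.1 to 192 CPM in knockdown libraries and 40.4 to 81.9 CPM in overexpression libraries (log2 difference of 1.35, SE 0.13, adjusted p = 0.000152, edgeR). Since the shRNA is present in both lines and these reads are of the 3′ UTR, they check neither label. Of 16 markers of retinal pigment epithelium in the tables, only PAX6 (75.4 CPM on average) and OTX2 (2.20 CPM) reached a mean of 1 CPM, while RPE65 and RLBP1 stayed under 0.1 CPM on average, and TTR and SERPINF1 had no read in any library. The summed level of this marker list was 38.7 to 97.2 CPM in knockdown and 68.8 to 117 CPM in overexpression libraries, most of it PAX6. The fibroblast list, with 3 of 7 genes at a mean of 1 CPM or more, summed to 445 to 668 CPM in knockdown and 248 to 421 CPM in overexpression libraries, most of it THY1, while COL3A1, DCN and LUM averaged under 0.11 CPM. The keratinocyte list reached 1 CPM only with KRT10, the neural list only with MAP2 (summed level of 3.56 to 15.1 CPM in knockdown and 1.98 to 10.6 CPM in overexpression libraries), and the endothelial and blood lists with no gene. The part of these differences in the results was not tested.

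Most of the tested keratin members were more abundant in the knockdown line. KRT8, KRT18, KRT7, KRT15 and KRT81 rose, and so did MITF, by 1.55-fold (KRT18) to 3.03-fold (KRT15) over the overexpression line. KRT80 and VIM did not pass the test, and KRT19 was too low to be tested. Thus 6 of the 8 tested members passed edgeR's quasi-likelihood test at an adjusted p of 0.05, all upward, where 21.9% of the 13165 genes tested passed in either direction and 11.2% upward. The members' median log2 difference was 0.94, against -0.01 over all genes tested. In each of these 6 genes both knockdown courses lay above both overexpression courses, as they did in 30.6% of genes tested. The members were chosen with earlier results of these data known, so these comparisons with all genes are not an independent test.

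**Figure D1:**
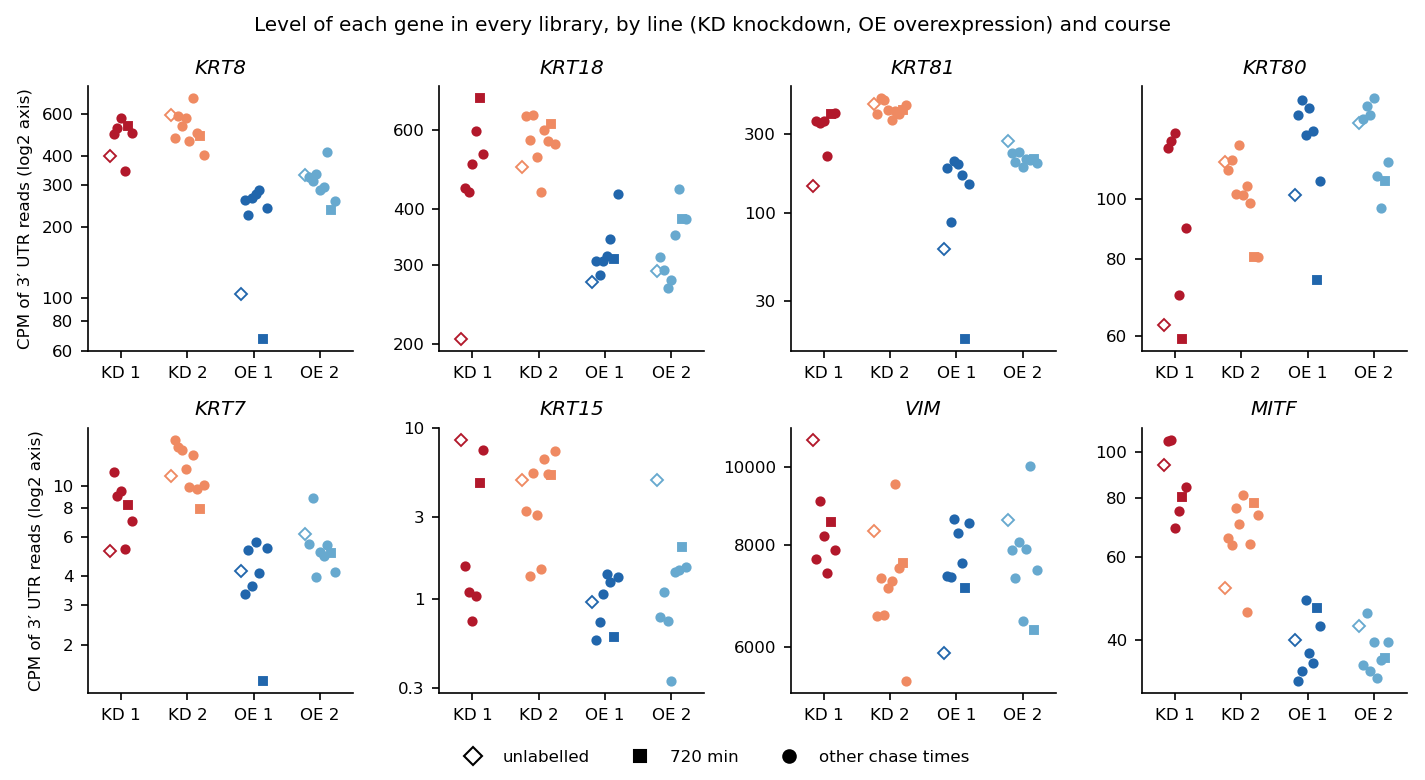
Level of 8 genes in each of the 34 libraries, in CPM of 3′ UTR reads on a log2 axis with its own range in each panel, by line (KD knockdown, OE overexpression) and course. Points are libraries (diamonds unlabelled, squares 720 min, circles other chase times). MITF and KRT81 separate the lines in most libraries, VIM does not, and the 720 min square of overexpression course 1 is the lowest point for KRT7, KRT8 and KRT81.

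KRT8, the type II chain of simple epithelia, had 344, 500 and 700 CPM (lowest, median and highest library) in the knockdown line, against 66.9, 274 and 414 CPM in the overexpression line. Of the 17 knockdown libraries 14 lay above every overexpression library. Summed per course, KRT8 stood at 484 and 549 CPM in the knockdown courses and at 228 and 318 CPM in the overexpression courses (516 ± 46.0 against 273 ± 63.9, SD, n = 2 each). The log2 difference was 0.92 (SE 0.16, edgeR adjusted p = 0.00308). Its lowest library was the 720 min library of overexpression course 1. Without the 720 min and unlabelled samples of all courses, the log2 difference of KRT8 was 0.77 (edgeR adjusted p = 0.000492). Both of its intervals were higher in the knockdown courses, by a log2 ratio of course means of 0.93 at the main interval and 0.72 at the other.

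KRT18, the type I partner of KRT8, had 205, 558 and 707 CPM in knockdown libraries, against 267, 309 and 444 CPM in overexpression libraries. Again 14 knockdown libraries lay above every overexpression library, but the lowest value of all, 205 CPM, was that of the unlabelled library of knockdown course 1. The course levels were 498 and 607 CPM in the knockdown line, against 341 and 371 CPM in the overexpression line. The log2 difference was 0.63 (SE 0.13, edgeR adjusted p = 0.00798). KRT18 kept this value without the 720 min and unlabelled samples (0.63, adjusted p = 0.0011, edgeR), but it lost the call without knockdown course 2 (0.49, adjusted p = 0.0513, edgeR). The log2 ratio of its course means was 0.69 at the first interval and 0.57 at the second, and these intervals may share reads. The first interval took 43.5% to 52.3% of KRT18 reads in knockdown libraries, against 20.7% to 51.8% in overexpression libraries, where the lowest shares were those of the unlabelled and 720 min libraries of course 1.

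KRT8 and KRT18, which form a filament together, were both higher in most knockdown libraries, but within a course their levels varied apart. Over the 34 libraries their log2 CPM correlated at 0.63 (0.76 without the 3 libraries that stood apart). After the mean of each course was subtracted, which removes the difference between the lines, the correlation was 0.16, and -0.04 without those 3 libraries. The ratio of KRT8 to KRT18 reads ran from 0.575 to 1.95 in knockdown libraries and from 0.217 to 1.25 in overexpression libraries, and the ranges overlapped. Within courses KRT8 was closest to KRT81 among the members (r = 0.86), but without those 3 libraries this was 0.49 and KRT8 was closest to VIM (0.74, against 0.52 with all libraries). The libraries of a course share their cells' treatment and are not independent, so these correlations are descriptions.

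KRT81, the hair keratin, had 146, 392 and 490 CPM in knockdown libraries, against 17.6, 201 and 270 CPM in overexpression libraries. The knockdown line was higher in 15 of 17 libraries than any overexpression library. Its course levels were 319 and 432 CPM in the knockdown line, against 147 and 230 CPM in the overexpression line (375 ± 80.4 against 189 ± 58.5, SD, n = 2 each). The log2 difference was 0.99 (SE 0.21, edgeR adjusted p = 0.00763). The lowest KRT81 value of each line was in a library that stood apart, the unlabelled library of knockdown course 1 (146 CPM) and the 720 min library of overexpression course 1 (17.6 CPM). With the 720 min and unlabelled samples left out, KRT81 differed by 0.93 (adjusted p = 0.000264, edgeR).

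KRT7 and KRT15 were low. KRT7 had 5.19, 9.95 and 16.0 CPM in knockdown libraries, against 1.38, 5.09 and 8.87 CPM in overexpression libraries, from 30 to 711 reads per library. The log2 difference of KRT7 was 1.07 (SE 0.25, edgeR adjusted p = 0.0125), and without knockdown course 2 it was 0.73 and no longer passed (adjusted p = 0.0872, edgeR). KRT15 had 0.745, 4.74 and 8.52 CPM in knockdown libraries, against 0.328, 1.10 and 4.96 CPM in overexpression libraries, from 10 to 261 reads. It varied widely within a course, and the labelled libraries of knockdown course 1 held 0.745 to 7.40 CPM. The log2 difference of KRT15 was 1.60 (SE 0.37, edgeR adjusted p = 0.0124). It was 2.20 without overexpression course 2 and 1.18 without overexpression course 1. KRT19, the common type I partner of KRT7, had 40 reads in all 34 libraries and none in 15 of the 17 libraries of each line, and 34 of these reads were in the unlabelled library of knockdown course 2.

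KRT80 was the one tested member with a lower course mean in the knockdown line, and it did not pass. It had 59.3, 102 and 128 CPM in knockdown libraries, against 74.0, 129 and 146 CPM in overexpression libraries. Here 9 of the 17 overexpression libraries lay above every knockdown library. The course levels were 91.2 and 104 CPM in the knockdown line, against 121 and 120 CPM in the overexpression line. The log2 difference of KRT80 was -0.30 (SE 0.13, edgeR adjusted p = 0.121).

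VIM was the most read member, with 8318545 reads over all libraries. It had 5440, 7619 and 10791 CPM in knockdown libraries, against 5903, 7622 and 10036 CPM in overexpression libraries, and the ranges overlapped nearly whole. The course levels were 8564 and 7796 CPM in the knockdown line, against 7767 and 8259 CPM in the overexpression line. The log2 difference was 0.03 (SE 0.11, edgeR adjusted p = 0.886). Its sign turned without the 720 min and unlabelled samples (-0.12, adjusted p = 0.337, edgeR).

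MITF separated the lines most fully. It had 45.8, 75.1 and 106 CPM in knockdown libraries, against 32.8, 37.7 and 48.6 CPM in overexpression libraries. Of the 17 knockdown libraries 16 lay above every overexpression library, and in all 6 kinds of sample that every course holds (unlabelled and 5 chase times) both knockdown libraries exceeded both overexpression libraries. By a stricter criterion, which MITF did not meet, all 17 libraries of the knockdown line lay above all 17 of the overexpression line. This held in 1.29% of genes tested, none of them a member. The share of genes tested with library counts like those of MITF or of the other members was not taken. The course levels of MITF were 86.7 and 65.3 CPM in the knockdown line, against 39.3 and 38.6 CPM in the overexpression line (76.0 ± 15.1 against 39.0 ± 0.538, SD, n = 2 each). The log2 difference was 0.96 (SE 0.16, edgeR adjusted p = 0.00184) and 1.00 without the 720 min and unlabelled samples (adjusted p = 0.000218, edgeR).

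**Figure D2:**
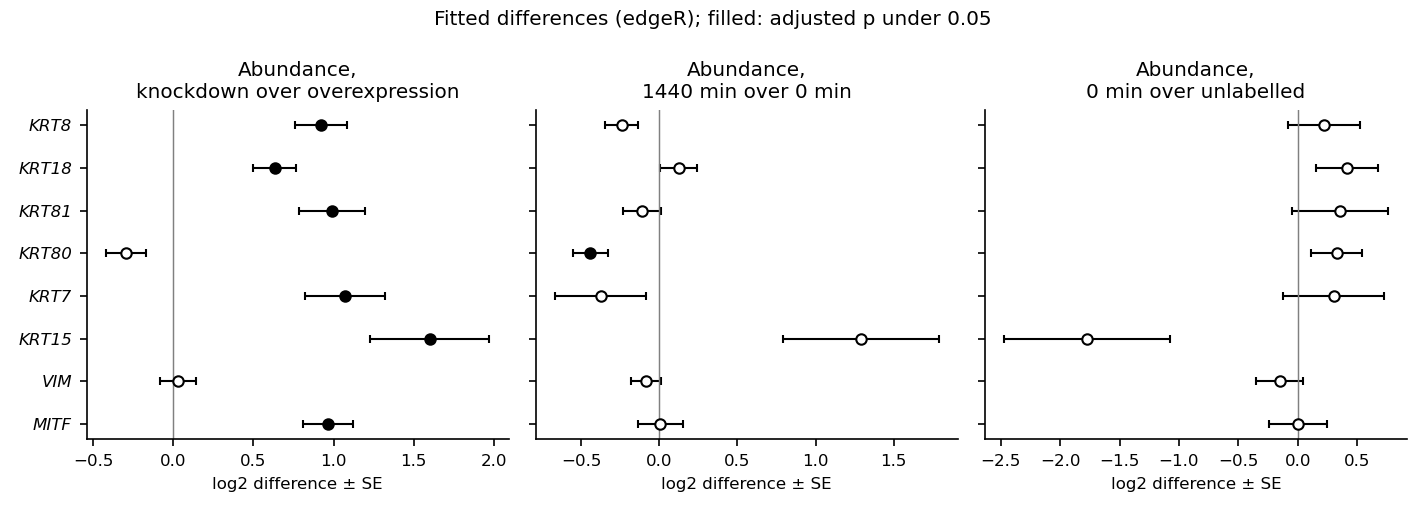
Log2 difference in abundance of the 8 tested members for 3 comparisons, each panel with its own axis: knockdown over overexpression, 1440 over 0 min, and 0 min over unlabelled. Points are edgeR estimates with SE bars, filled where the adjusted p was under 0.05. Between the lines 6 of the 8 genes passed, with KRT15 highest at 1.60, while VIM (0.03) and KRT80 (-0.30) did not pass.

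KRT7, KRT8, KRT18, KRT80 and KRT81 lie on chromosome 12. Of 722 genes tested on chromosome 12, 15.9% were higher in the knockdown line with a median log2 difference of 0.12, against 11.2% and -0.01 over all genes. The part of this in the keratin levels was not tested.

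The other keratins were mostly at or near 0. Of 47 further keratin genes in the tables, 14 had no read and 4 averaged 1 CPM or more (KRT10, KRT34, KRT86 and KRT33B). Of the 8 that were tested, 1 rose and none fell, where 11.2% of all genes tested rose and 10.7% fell. The list's median log2 difference of 1.47 includes genes of under 0.1 CPM. KRT34, a type I hair keratin, rose to 21.2 and 27.7 CPM in the knockdown courses, against 4.10 and 8.26 CPM in the overexpression courses (log2 difference of 1.98, SE 0.29, edgeR adjusted p = 0.00106). KRT10, a type I keratin of differentiated epidermis, had 85.7 and 98.5 CPM in the knockdown courses, against 86.9 and 104 CPM in the overexpression courses, and did not pass.

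Proteins that join filaments to desmosomes and to the cytoskeleton were read next. Of 16 tested linker and desmosome genes, 5 rose, 1 fell and 10 did not pass. Their median log2 difference was 0.39 against -0.01 over all genes tested, of which 11.2% rose and 10.7% fell. PKP2, a plakophilin of the desmosomal plaque, differed by 1.29 (SE 0.17), plakoglobin (JUP) by 1.11 (SE 0.18) and desmoplakin (DSP), which anchors keratin filaments to desmosomes, by 0.86 (SE 0.13), all with edgeR adjusted p of 0.0019 or lower. PKP4, a relative of the plakophilins, fell by 0.42 on the log2 scale (edgeR adjusted p = 0.0319). Of the 6 tested intermediate filament genes other than keratins and vimentin, 1 rose, 3 fell and 2 did not pass (median -0.47). These 3 were the lamins LMNB1 (-1.35) and LMNB2 (-0.81) of the nuclear envelope and synemin (SYNM, -1.06), a filament protein that assembles with vimentin, and the 1 that rose was IFFO1 (0.64).

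Neither the epithelial junction genes nor the mesenchymal genes moved as a list. None of the 13 tested genes of epithelial junctions and their regulators passed (median 0.01), with TJP1, the tight junction scaffold, at 0.02 and occludin (OCLN) at -0.91 (edgeR adjusted p = 0.066). Of the 24 genes of this list in the tables only 5 averaged 1 CPM or more and 1 reached 10 CPM. At such low levels only large differences could pass. Of 19 mesenchymal genes, 4 rose, 1 fell and 14 did not pass (median 0.09), where 11.2% of all genes tested rose and 10.7% fell. FAP, a serine protease of activated fibroblasts, rose by 1.68 on the log2 scale, SNAI2, a repressor of epithelial genes, by 1.13 and THY1, a surface glycoprotein, by 0.79. AXL, a receptor tyrosine kinase, fell by 0.54 on the log2 scale.

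Genes around MITF did not move in 1 direction. Of 16 tested genes of the MITF family, its regulators and partners, 3 rose, 2 fell and 11 did not pass (median 0.16). Over all genes tested, 11.2% rose and 10.7% fell. RRAGC (0.65) and FLCN (0.47), both of the lysosomal nutrient-sensing machinery that controls the location of MITF family proteins, rose, as did the transcription factor SOX9 (0.64). PAX6, an eye transcription factor, fell by 0.72 on the log2 scale. Of 18 tested pigment genes and other MITF targets, 4 rose, 2 fell and 12 did not pass (median 0.13). GPNMB, a glycoprotein of melanosomes and lysosomes, differed by 1.26 (SE 0.14, edgeR adjusted p = 0.000274), HIF1A by 1.15 and the acid ceramidase ASAH1 by 0.74. RAB38, which acts in melanosome traffic, fell by 1.08 on the log2 scale and BCL2, an inhibitor of apoptosis, by 1.01. The melanosome genes TYR, DCT and PMEL averaged under 0.3 CPM.

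The label and the chase were next checked for their effect on levels. Between 0 min and unlabelled libraries, 0 of 12241 genes passed edgeR's test (431 at an unadjusted p under 0.05, and 4 with DESeq2), and no member passed. The unlabelled libraries of knockdown course 1 and overexpression course 1 stood apart. The lack of calls therefore does not show that s4U left levels unchanged. Among members the widest difference was that of KRT15 (log2 of -1.77, SE 0.70, edgeR adjusted p = 0.889). Between 1440 and 0 min, 4.59% of 12280 genes passed (2.35% higher and 2.24% lower at 1440 min), and KRT80 was the only member among them, lower at 1440 min by a log2 of -0.44 (SE 0.11, edgeR adjusted p = 0.0186). KRT80 no longer passed without knockdown course 1 (adjusted p = 0.0784, edgeR), knockdown course 2 (0.0741) or overexpression course 1 (0.0673). KRT15 differed by 1.29 (SE 0.50) and did not pass edgeR's test (adjusted p = 0.149). The chase change itself differed between the lines in 0.0163% of genes and in no member.

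The s4U label gave the turnover. Newly made RNA carries s4U, which reads as C after alkylation, so the T>C rate (conversions over covered T bases) falls in the chase as labelled mRNA is lost or replaced. The label left is the rate at a time minus that of the unlabelled library, as a share of the 0 min value. At 0 min the VIM rate was 0.982% and 0.974% in the knockdown courses, against 1.19% and 1.06% in the overexpression courses, and in unlabelled libraries it was 0.0236% and 0.0369% in the knockdown line, against 0.0225% and 0.0313% in the overexpression line. No gene passed limma's test of the 0 min label between the lines (0 of 8892, 546 at an unadjusted p under 0.05). KRT18 had a 0 min rate of 0.642% and 0.726% in the knockdown courses, against 1.24% and 0.892% in the overexpression courses (log2 difference of the corrected rates of -0.64, SE 0.28, limma adjusted p = 0.822).

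VIM mRNA lost its label late. At 360 min 88.1% and 86.0% of the label was left in the knockdown courses, against 80.8% and 77.5% in the overexpression courses. At 720 min it was 64.4% and 55.0% in the knockdown courses, against 36.5% and 45.5% in the overexpression courses, while all reads together held 30.4% and 28.8% in knockdown and 16.7% and 22.4% in overexpression. At 1440 min 18.3% and 17.3% was left in the knockdown courses, against 5.41% and 4.24% in the overexpression courses. VIM was thus higher in both knockdown courses at each of these times, and the same held for 26.8% of genes at 360 min, 31.7% at 720 min and 21.9% at 1440 min.

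KRT81 was also higher in both knockdown courses at the last time, as were 21.9% of genes. It held 27.5% and 26.0% of its label at 1440 min in the knockdown courses, against 6.79% and 7.50% in the overexpression courses. At 360 min the courses overlapped, with 81.4% and 77.2% in knockdown and 67.3% and 109% in overexpression. At 720 min they overlapped too, with 49.6% and 67.3% in knockdown and 36.7% and 57.0% in overexpression. The value of 36.7% rests on 383 reads of the library that stood apart. KRT18 showed another course: 60.6% and 30.3% at 720 min in knockdown, against 1.89% and 20.8% in overexpression, and at 1440 min 1.81% and 2.60% in knockdown, against 0.588% and 5.05% in overexpression. The low value of 1.89% was that of the 720 min library of overexpression course 1. KRT80 and MITF had lost most of their label by 720 min. For KRT80 3.66% and 3.71% was left in knockdown, against 0% and 4.69% in overexpression. For MITF it was 6.77% and 0% in knockdown, against 0.380% and 12.1% in overexpression. The medians over 9096 genes at that time were 7.85% and 6.25% in knockdown, against 0.821% and 4.44% in overexpression. KRT8, whose label includes its multimapped interval, held 69.9% and 40.3% at 720 min in knockdown, against 96.1% and 72.5% in overexpression. The value of 96.1% was that of the library that stood apart. At 1440 min the courses overlapped, and KRT8 kept 31.4% and 19.1% in knockdown and 22.3% and 3.52% in overexpression. Among all reads 9.95% and 8.70% of the label was left at 1440 min in knockdown, against 5.69% and 4.17% in overexpression.

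**Figure D3:**
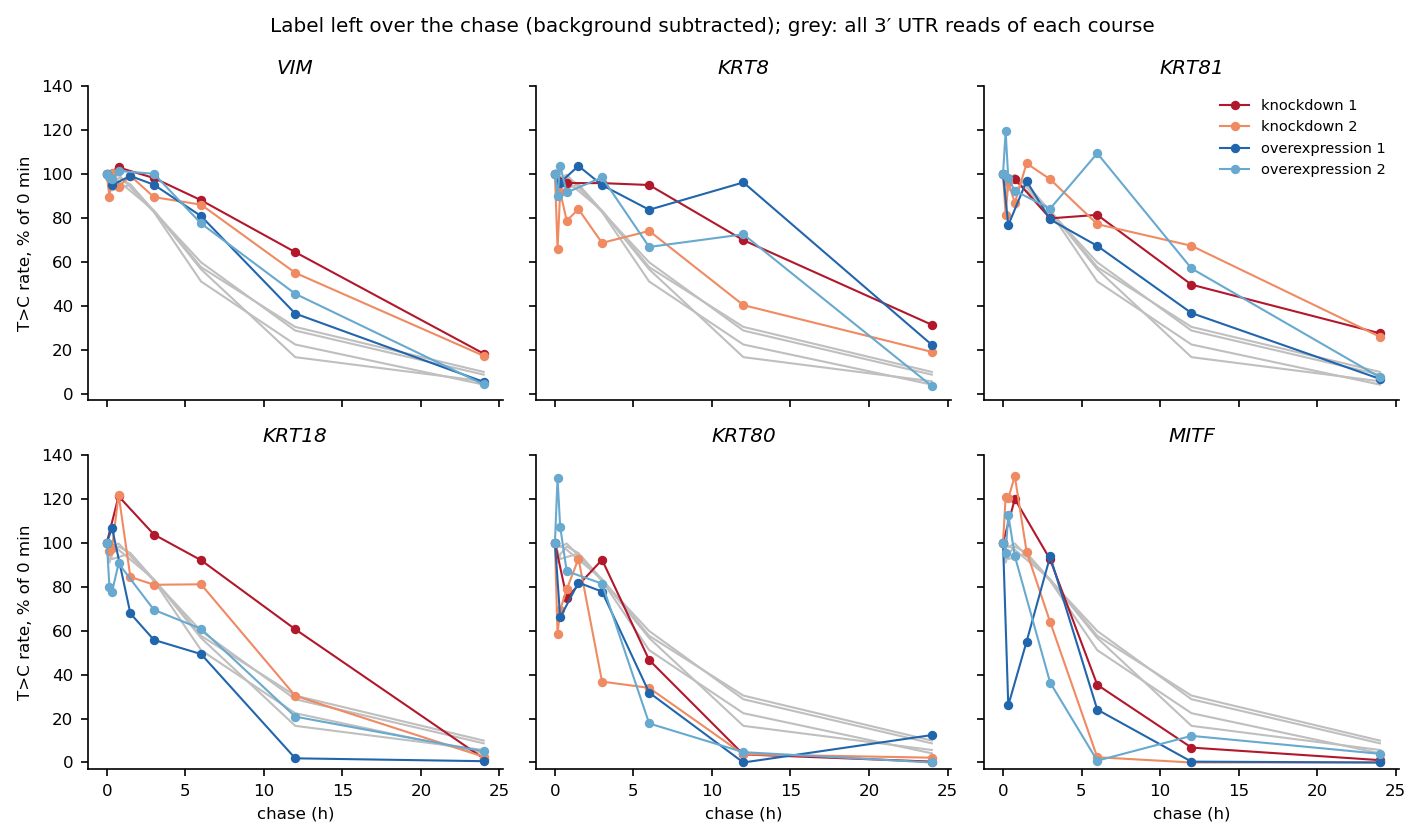
Label left of VIM, KRT81, KRT18, KRT8, KRT80 and MITF over the chase, as percent of the 0 min T>C rate after subtraction of the unlabelled library, against chase time in hours. Coloured lines are the 4 courses, grey lines all 3′ UTR reads of each course, and KRT8 is shown with all its intervals. At 1440 min the knockdown courses keep 18.3% and 17.3% of the VIM label and the overexpression courses 5.41% and 4.24%.

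Half-lives were fitted per course as an exponential loss of label and kept at an R2 of 0.6 or more. VIM had 15.4 and 13.4 h in the knockdown courses, against 10.1 and 10.7 h in the overexpression courses. These lay at the 94.4 to 96.9 percentile of all kept genes, whose medians were 4.31 and 5.05 h in knockdown and 4.63 and 4.11 h in overexpression. KRT81 had 13.1 and 16.2 h in the knockdown courses, against 8.50 and 13.9 h in the overexpression courses, and the ranges overlapped. KRT18 had 13.4 and 8.84 h in the knockdown courses, against 4.00 and 6.11 h in the overexpression courses, and was 4.45 h in overexpression course 1 without its 720 min library.

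KRT80 lay between the 19.0 and the 62.2 percentile of kept genes, with 5.22 and 2.97 h in the knockdown courses and 4.13 and 3.97 h in the overexpression courses. MITF had 5.36 and 3.74 h in the knockdown courses and 2.26 h in overexpression course 2, and the fit in overexpression course 1 had an R2 of 0.362 and was not kept. With its multimapped interval included, KRT8 had 19.6 and 9.15 h in the knockdown courses and 21.4 and 12.4 h in the overexpression courses. These long values rest on that interval. With it left out, the only KRT8 fit kept over all times was 3.24 h in overexpression course 1, and from 180 min on the fits were 3.32 and 2.0 h in the knockdown courses and 3.86 and 7.32 h in the overexpression courses. KRT7 gave no acceptable fit in any course, and KRT19 had too few reads. KRT15 could not be scaled to 0 min in any course. Its 0 min T>C rate was 0% in both knockdown courses, on 51 and 146 reads. In both overexpression courses it was under 1 CPM at 0 min.

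Of the 4 members with a half-life in all courses, VIM and KRT18 were longer in both knockdown courses than in both overexpression courses, as were 33.2% of the 3314 genes compared. None of these genes passed limma's test (0 of 3314, 256 at an unadjusted p under 0.05), with a median log2 difference of 0.20 over all. The log2 difference was 1.14 for KRT18 (SE 0.37, limma adjusted p = 0.641), 0.47 for VIM (SE 0.29, limma adjusted p = 0.666), 0.42 for KRT81 (SE 0.36, limma adjusted p = 0.734) and -0.04 for KRT80 (SE 0.36, limma adjusted p = 0.974). For the label left at 360 min, too, 0 of 7112 genes passed (357 at an unadjusted p under 0.05).

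**Figure D4:**
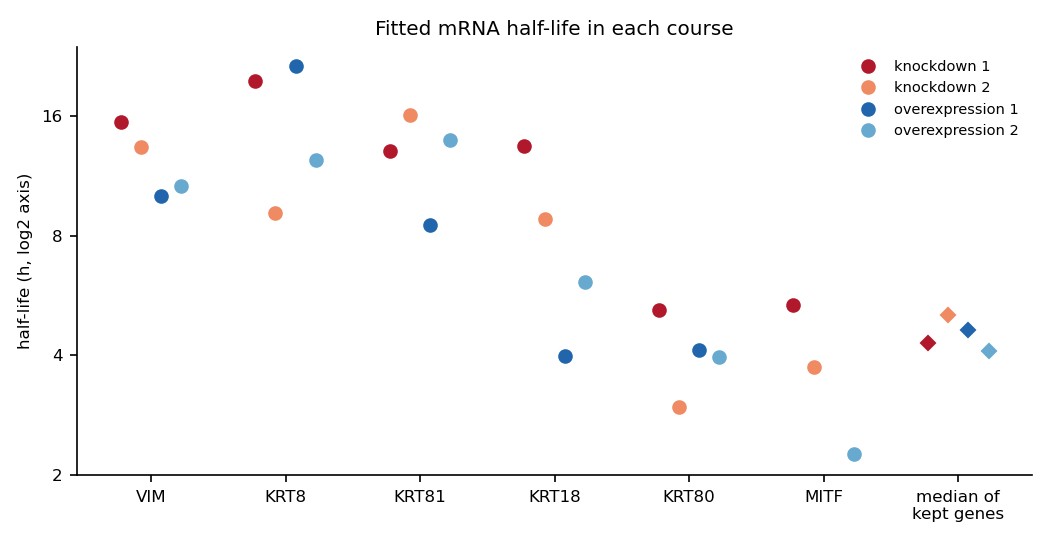
Half-life in hours of VIM, KRT81, KRT18, KRT8 (all intervals), KRT80 and MITF in each course, on a log2 axis. Circles are the 2 knockdown and 2 overexpression courses, diamonds the median of all kept genes. MITF has no point in overexpression course 1, and VIM lies at 15.4 and 13.4 h in knockdown against 10.1 and 10.7 h in overexpression.

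Finally, the genes that varied most like a member within the courses were listed, by the correlation of log2 CPM over the 34 libraries after the mean of each course was subtracted. RHOA, a small GTPase, was nearest to KRT8 (r = 0.96), MYBL2, a cell cycle transcription factor, to KRT81 (0.97), RALB, another small GTPase, to KRT18 (0.85) and BAIAP2, an actin regulator, to KRT80 (0.87). UBXN1 was nearest to KRT7 (0.83), MEX3D to KRT15 (0.70) and the actin-binding CNN3 to VIM (0.82). This likeness leaves out the difference between the lines. On the levels themselves r was 0.80 for KRT8 and RHOA, 0.81 for KRT18 and RALB, 0.80 for VIM and CNN3 and 0.65 for KRT80 and BAIAP2, but only 0.40 for KRT7 and UBXN1, 0.03 for KRT81 and MYBL2 and -0.08 for KRT15 and MEX3D. All these values share the depth and the courses of the libraries, and the genes were ranked from about 8343. Without the 3 libraries that stood apart, r within courses was 0.86 for KRT81 and MYBL2 and 0.85 for KRT8 and RHOA. Across the 24 top pairs it ran from 0.614 to 0.864, against 0.580 to 0.970 with all libraries. On the levels without those 3 libraries, r was -0.68 for KRT81 and MYBL2, 0.47 for KRT8 and RHOA and 0.04 for KRT7 and UBXN1. It was 0.81 for VIM and CNN3, 0.76 for KRT18 and RALB, 0.54 for KRT80 and BAIAP2 and -0.04 for KRT15 and MEX3D.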

How the data were processed

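The deposited tables give, per 3′ UTR interval, counts of reads, covered T bases and T>C conversions, which the authors' service made with SLAMdunk 0.4.3 on hg38. No source used here gives the release of the UTR annotation. The deposited CPM column is relative to mapped reads and the deposited conversion rate is a fraction. Both were checked to be quotients of the counts. Counts were summed per gene, leaving out 1168 intervals that name several genes. Levels were computed as CPM of 3′ UTR reads. Abundance was tested with edgeR 4.0.16 (quasi-likelihood, TMM, filterByExpr) on the summed counts of each course, from the 6 samples that all courses share, 2 courses against 2. Label rates and half-lives were tested on the log2 scale with limma 3.58.1. DESeq2 1.42.0 was an alternative. P-values were adjusted by Benjamini-Hochberg over all genes. For label rates, intervals with over 10% multimapped reads were left out, which removes the main KRT8 interval, and genes needed 1 CPM. Conversions and covered T bases were summed before the rate was taken. Transcript types were read from GENCODE 44. The tests were checked on simulated data. All 14 pairs of libraries that share a line and a time exceeded counting error (chi-square per degree of freedom of 26.3 or more), so none was taken as a repeat read of the same library. This does not show that the courses were independent cultures. All 9 members are named, and of each gene list the genes with the largest differences among those that passed and averaged 10 CPM, or else the highest. A few genes that this rule names are not reported here. The members and lists were chosen with earlier results of these data known.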

Additional observations from a re-analysis of the deposited data

Results flagged for a closer look

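Among the libraries of each course, 3 of 32 gene and course groups held a library far from the others. The libraries of a course are different chase times and not replicates, and chance flags about 1 in 20 such groups. KRT7 had 8.87 CPM in the 10 min library of overexpression course 2, where the next highest library had 6.18 CPM. KRT15 had 4.96 CPM in the unlabelled library of overexpression course 2, where the next highest had 2.01 CPM. KRT18 had 431 CPM in the 1440 min library of overexpression course 1, where the next highest had 343 CPM.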

How the results depend on the processing

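For the members, 380 of 419 values under alternative settings kept their direction and their side of the threshold, 14 no longer passed, 3 passed only there and 22 turned sign. Many of these values are from tests that no member passed, where keeping that side of the threshold says little. Of the abundance values 94 kept both, 11 no longer passed, 2 passed only there and 5 turned sign. For the chase change these counts were 50, 3, 1 and 2. KRT8, KRT81 and MITF passed in 13 of 14 alternatives for abundance, KRT15 in 12 and KRT7 and KRT18 in 11. The unlabelled libraries alone called none of them. KRT7 (adjusted p = 0.248, edgeR) and KRT18 (0.0895) did not pass in the 1440 min libraries alone, nor KRT15 (0.274) in those of 0 min. Of all genes, 2885 differed in abundance, against 1870 in the 0 min, 1020 in the 1440 min and 4 in the unlabelled libraries alone, 5198 with all 34 libraries as samples, and 1992 to 2385 without 1 course. With the replicate number as a block 5251 genes differed, KRT80 among them (-0.30, adjusted p = 0.00447, edgeR). Course deviations of the same number correlated at 0.51 over genes, but with 2 pairs and no shared culture stated this is only a shared number. DESeq2 called 4 genes and no filter 14 for the label, against 0. For the chase the counts were 564, 860 with DESeq2 and 363 to 451 without 1 course. Of the interaction they were 2, 19 with the course block, 13 with DESeq2, 16 with no filter and 0 with 720 and 1440 min against 0 and 180 min. The values that turned sign were small or unsure. VIM abundance was -0.12 without the unlabelled and 720 min samples, -0.11 at 0 min and -0.26 at 1440 min alone, and -0.0366 to 0.0991 without 1 course. The label effect without 1 course was -0.0169 to 0.407 for KRT8 and -0.115 to 0.0809 for MITF, and 0.0152 for MITF with the block. Without 1 course the chase change of MITF was -0.10 to 0.16, its 0 min label -0.218 to 0.0637 and its label left at 360 min -1.39 to 3.49, and the label left of KRT81 was -0.46 to 0.24. With the mean background or none subtracted the 0 min label of MITF was 0.0067 and 0.0064. From 180 min on, the half-life difference was 1.09 for KRT80 with all and with filtered intervals, and 0.17 for KRT8 with all intervals. With filtered intervals KRT8 then had 3.32 and 2.0 h in the knockdown courses and 3.86 and 7.32 h in the overexpression courses. These values rest on the interval with 7.49% of its reads, and the share of all genes with such an order in this setting was not counted. The half-life difference of KRT80 was -0.45 to 0.37 without 1 course. The settings for KRT8 half-lives were added after the data had been seen. The cause of these changes was not tested. KRT7, KRT15 and KRT19 had too few conversions for a half-life, and with 2 courses a line only large differences could pass.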
